A study of Mus musculus with 8 samples.

Results

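Virtual memory (VM) CD8 T cells that carried Sca-1 were compared with VM cells that lacked it, in 6 of the 8 bulk RNA-sequencing libraries of a study of CD8 T cell subsets. All cells were splenic and from C57BL/6 mice labelled wild-type, and the age of the mice was not given in the sources used here. Per the labels, CD8 T cells were first enriched with anti-CD8 beads, and VM cells were gated as CD44hi and CD49d- before they were divided by Ly6C and Sca-1. The Sca-1+ libraries were 2 of Ly6C+ Sca-1+ VM cells and 1 of Ly6C- Sca-1+ VM cells. The Sca-1- libraries were 2 of Ly6C+ Sca-1- VM cells and 1 of Ly6C- Sca-1- VM cells. The 6 libraries were taken as 3 pairs of a Sca-1+ and a Sca-1- library: Ly6C+ pair A (table columns without a suffix), Ly6C+ pair B (columns with a suffix) and the Ly6C- pair. The labels do not state the pairing of the libraries in the 2 Ly6C+ pairs, and what the suffix marks is not given. They also do not say whether libraries came from separate mice, so the p-values below measure only the spread between these samples, which may be technical.

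VM cells are CD8 T cells that take on a memory-like state without having met a foreign antigen, under the influence of cytokines such as IL-15 and IL-4. Sca-1, the product of Ly6a, is a small surface protein of the Ly6 family held in the membrane by a lipid anchor. It marks blood stem cells in the mouse, and on mouse T cells it appears on activation and after exposure to interferon. Dividing T cells switch on genes in order, first those for making DNA, driven by E2F factors, and then those for building the spindle and separating chromosomes, which the DREAM complex holds down in resting cells and a B-Myb complex switches on.

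Total counts were between 49993407 and 63815914 per library, so 1 count equalled 0.0157 to 0.02 CPM (a count scaled to a common library total). The first principal component of the 6 libraries held 59.2% of the variance and placed the Ly6C- libraries (62.3 for Sca-1+ and 46.1 for Sca-1-) apart from the Ly6C+ libraries (-20.9 and -11.1 for Sca-1+, -34.7 and -41.8 for Sca-1-). On the second component, with 15.2%, Ly6C+ Sca-1- B lay lowest at -34.9. Genes are no independent replicates, and across them the differences of Ly6C+ pairs A and B had a Pearson correlation of 0.447. Against the Ly6C- pair the correlations were 0.179 for pair A and 0.213 for pair B. The labelled cell type was checked on its markers: the CD8 genes Cd8a and Cd8b1 together stood at 2080, 2240 and 2280 CPM in the Sca-1+ libraries and at 1870, 2100 and 1750 CPM in the Sca-1- libraries.

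The gate itself was visible in the RNA. Ly6a (Gene ID 110454, chromosome 15) stood at 29.1, 40.0 and 61.8 CPM in the Sca-1+ libraries, against 1.89, 2.55 and 3.44 CPM in the Sca-1- libraries. Here and below, 3 values of a group are given in the order Ly6C+ A, Ly6C+ B, Ly6C-. The groups did not overlap, and the fold change was the largest of the called genes that averaged at least 5 CPM, with a log2 fold change of 4.03 ± 0.102 (standard error, SE) and an adjusted p = 7.1e-06 by edgeR's quasi-likelihood test. Ly6c2, a gene for Ly6C, was at 942, 905 and 74.9 CPM in Sca-1+ cells, against 1002, 959 and 54.0 CPM in Sca-1- cells. The division of reads between Ly6c2 and its near-identical neighbour Ly6c1 is uncertain. Neither passed the test, and nor did Cd44 or Itga4, the gene for CD49d. Of the 9 Ly6 family genes tested, only Ly6a, the gene of the gate itself, was called, against 1.06% of all genes tested called higher. Ly6e had the next smallest p (0.25 ± 0.0773, adjusted p = 0.295 by edgeR) and did not pass. Its Sca-1+ libraries at 819, 818 and 961 CPM nevertheless all lay above the Sca-1- libraries at 753, 725 and 702 CPM.

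Over the 3 pairs, 59 genes of cell division, 6 interferon-inducible GTPase genes, 2 granzyme genes and 3 S100, annexin and galectin genes were higher in Sca-1+ cells, and Ikzf2, Hdac9, Spry2 and 2 Ly49 receptor genes were lower. Of 14776 genes tested, 156 were called higher (1.06%) and 18 lower (0.122%) at an adjusted p under 0.05 by edgeR's quasi-likelihood test with pair as a block. Each of these 174 genes differed in the same direction in the 3 pairs, which was so for 17% of all tested genes upward and 15.6% downward. The paired test favours genes with 1 direction in all pairs, so this is no separate support for the calls. The 3 Sca-1+ libraries lay wholly above the 3 Sca-1- libraries for 26 of the 156 and wholly below for 5 of the 18, against 2.72% and 2.28% of all tested genes. For the other called genes the 2 groups of 3 libraries overlapped, and the difference was within pairs. These counts rest on the pairing: with Ly6C class as the block, which needs no pairing of the Ly6C+ libraries, 5 genes were called (Ly6a, Jchain, Lgals3, Uhrf1 and Nrp1, all higher), and with no block 0 were, with 220 at an unadjusted p under 0.05, compared with 1523 in the paired fit. Without Ly6C+ pair A, 2 genes were called (Ly6a and Igkc), without Ly6C+ pair B 150, and without the Ly6C- pair 486. For these 6 libraries the authors' deposited table had 7 genes called, all higher in Sca-1+ cells: Igkc, Lrp1, Spic, Vcam1, Axl, Wdfy3 and Ly6a, of which 4 were also called here.

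**Figure D1:**
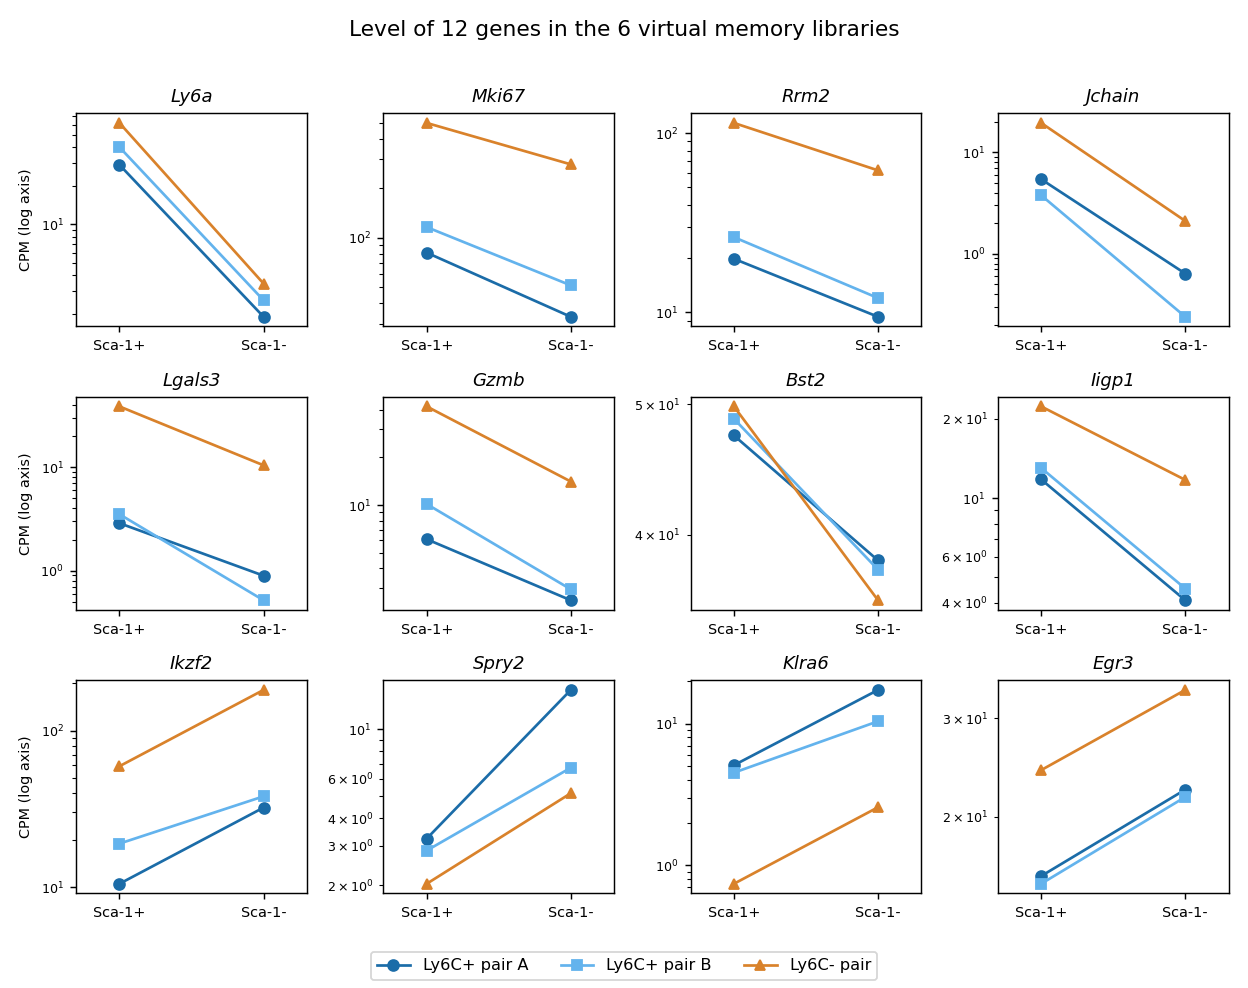
CPM (vertical log axis, scaled per panel) of 12 genes in the 6 libraries, with Sca-1+ at the left and Sca-1- at the right of each panel. Each line joins the libraries of 1 pair; the lines of the first 8 genes fall toward Sca-1- in all 3 pairs and those of Ikzf2, Spry2, Klra6 and Egr3 rise, with Ly6a at 29.1 to 61.8 CPM in Sca-1+ and 1.89 to 3.44 CPM in Sca-1- libraries.

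Genes of mitosis were the group with the most calls. Of 59 tested mitosis and G2/M genes, 45 were higher in Sca-1+ cells and 0 lower, against the background of 1.06% higher among all genes tested. Their median log2 fold change was 0.99, against 0.0026 over all tested genes, with medians of 1.16 in Ly6C+ pair A, 0.96 in Ly6C+ pair B and 0.77 in the Ly6C- pair. Positive differences in each of the 3 pairs were seen for 56 of the 59, against 17% of all tested genes. Earlier results of these data had already shown division genes higher in Sca-1+ cells, so this count is no independent evidence of the direction.

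Mki67, which encodes the proliferation antigen Ki-67 that coats mitotic chromosomes, was at 81.1, 116 and 497 CPM in Sca-1+ cells, against 33.1, 51.3 and 279 CPM in Sca-1- cells. The groups overlapped, since Ly6C- Sca-1- cells lay above both Ly6C+ Sca-1+ libraries, while each pair showed the same order (log2 fold change 1.10 ± 0.0904, adjusted p = 0.00783 by edgeR). Top2a, the topoisomerase that untangles chromosomes, was at 63.3, 87.5 and 386 CPM, against 26.8, 41.9 and 227 CPM in Sca-1- cells (1.02 ± 0.0904). Cenpe, a kinesin of the kinetochore, was at 11, 15.5 and 69.9 CPM, against 5.90, 7.96 and 35.2 CPM in Sca-1- cells (0.95 ± 0.0823). Stmn1, which destabilises microtubules, had a smaller fold change (0.66 ± 0.0631), at 32.2, 42.7 and 162 CPM in Sca-1+ cells against 20.3, 25.2 and 110 CPM in Sca-1- cells. Adjusted p was 0.00831 for Top2a and Cenpe and 0.00886 for Stmn1 by edgeR.

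Regulators of the G2 to M step lay in the same range of fold changes. Cdk1, the kinase that starts mitosis, had a log2 fold change of 1.16 ± 0.125, and the B-type cyclin genes Ccnb1 and Ccnb2, whose products activate it, had 0.99 ± 0.122 and 0.99 ± 0.114. Higher in Sca-1+ cells too were the kinase genes Plk1 (1.01 ± 0.138) and Aurkb (1.16 ± 0.133), Birc5 for survivin, a partner of Aurora B (1.24 ± 0.129), and Ube2c, which helps destroy cyclins at the end of mitosis (1.05 ± 0.107). Foxm1, a transcription factor of G2 genes, was at 0.71 ± 0.0775. Nuf2, of the kinetochore, had the largest value of the list (1.29 ± 0.172). Among the 14 members that did not pass were Smc4, of condensin (-0.05 ± 0.0682, adjusted p = 0.84 by edgeR), Cenpa (0.20 ± 0.0906) and Racgap1 (0.17 ± 0.0964), and Smc4 was the only member with a negative value.

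Genes of DNA replication came next. Of 47 tested S phase genes 14 were higher in Sca-1+ cells and 0 lower, against 1.06% and 0.122% of all genes tested. The list's median log2 fold change was 0.42 (0.29, 0.36 and 0.59 in Ly6C+ pair A, Ly6C+ pair B and the Ly6C- pair). All 47 fold changes were positive. Rrm2, the regulated subunit of the enzyme that makes deoxynucleotides, was at 19.9, 26.3 and 114 CPM in Sca-1+ cells, against 9.45, 12 and 62.1 CPM in Sca-1- cells (1.02 ± 0.0756, adjusted p = 0.00721 by edgeR). Uhrf1, which keeps DNA methylation in place at replication, was at 38.2, 40.4 and 159 CPM, against 22.4, 20.7 and 100 CPM in Sca-1- cells (0.79 ± 0.0719). The checkpoint adaptor Clspn (1.14 ± 0.12) and the replication factor Mcm10 (1.05 ± 0.131) had larger fold changes than the helicase subunit genes Mcm3 (0.39 ± 0.0650) and Mcm5 (0.42 ± 0.0606). E2f2, a member of the E2F family, was at 34.8, 38 and 124 CPM in Sca-1+ cells, against 22.9, 24.8 and 75.9 CPM in Sca-1- cells (0.65 ± 0.0594, adjusted p = 0.00848 by edgeR).

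Together the 2 division lists held 59 of the 156 genes called higher (37.8%). Called mitosis genes were 38 without Ly6C+ pair B, 48 without the Ly6C- pair and 0 without Ly6C+ pair A, and they were 0 with Ly6C class as the block, all by edgeR. In bulk RNA a larger share of dividing cells and more of these transcripts per cell cannot be told apart. The level of these genes also differed between the Ly6C classes: the 59 mitosis genes summed to 1440, 1650 and 4320 CPM in Sca-1+ cells, against 1110, 1290 and 3010 CPM in Sca-1- cells, so that the Ly6C- Sca-1- library lay above both Ly6C+ Sca-1+ libraries.

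Promoter sequence was looked at for these members because they moved together. In each RefSeq promoter window (GRCm38.p6, from 250 bases before to 50 bases after a gene's start) both strands were searched for the cell cycle genes homology region element (CHR, TTTGAA or TTCGAA), the CCAAT box (CCAAT), E2F sites (TTTGGCGC, TTTCGCGC, TTCCCGCC or TTGGCGCC) and an interferon response core (GAAANNGAA). Matches were allowed to overlap, and a CHR match can share letters with an interferon response core. A window was found for 10403 of the 14776 tested genes, for 48 of the 59 mitosis genes and for 36 of the 47 S phase genes. A CHR match was present for 40 of the 48 mitosis genes (83.3%) and for 17.3% of all 10403 genes, and a CCAAT box for 72.9% of the mitosis genes and 43.3% of all. Pathway lists without a called gene held CCAAT shares from 0% (effector cytokines and chemokines) to 94.1% (cholesterol biosynthesis). Of the genes called higher that had a window, 45.5% held a CHR match, and of the 13 called lower 38.5% did. Of the mitosis genes with a window, the CHR match was found in 29 of 37 that were called and in 11 of 11 that were not. E2F letters were present for 18 of the 36 S phase genes (50%), 10.4% of the mitosis genes and 7.34% of all. To show these letters, 4 mitotic promoters and 1 replication promoter are given from 170 bases before to 30 bases after the gene's start, with the CHR and CCAAT matches of the mitotic genes and the E2F match of Clspn in capitals.
Ccnb2 (chr9:70421525-70421724, minus strand): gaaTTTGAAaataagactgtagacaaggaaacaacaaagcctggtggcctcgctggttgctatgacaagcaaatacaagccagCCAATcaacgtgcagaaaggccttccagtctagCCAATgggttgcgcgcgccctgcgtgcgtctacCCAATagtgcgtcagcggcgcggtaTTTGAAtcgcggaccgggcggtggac
Ube2c (chr2:164769759-164769958, plus strand): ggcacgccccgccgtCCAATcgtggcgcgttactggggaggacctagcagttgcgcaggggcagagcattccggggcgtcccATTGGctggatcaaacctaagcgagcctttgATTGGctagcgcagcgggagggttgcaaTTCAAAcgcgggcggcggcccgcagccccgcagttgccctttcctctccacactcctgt
Top2a (chr11:99024160-99024359, minus strand): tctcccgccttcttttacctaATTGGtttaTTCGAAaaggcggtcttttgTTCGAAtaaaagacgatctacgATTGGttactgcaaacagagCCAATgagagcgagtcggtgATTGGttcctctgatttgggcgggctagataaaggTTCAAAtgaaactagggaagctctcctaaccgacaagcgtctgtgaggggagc
Cdk1 (chr10:69352883-69353082, minus strand): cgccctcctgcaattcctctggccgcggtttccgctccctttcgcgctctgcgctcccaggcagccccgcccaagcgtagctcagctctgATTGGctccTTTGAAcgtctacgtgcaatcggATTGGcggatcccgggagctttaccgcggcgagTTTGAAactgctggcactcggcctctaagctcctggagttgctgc
Clspn (chr4:126556810-126557009, plus strand): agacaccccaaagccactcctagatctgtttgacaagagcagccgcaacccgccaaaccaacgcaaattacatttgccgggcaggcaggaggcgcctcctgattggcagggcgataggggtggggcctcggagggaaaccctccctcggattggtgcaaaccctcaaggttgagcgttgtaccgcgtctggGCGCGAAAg
Within these 200 bases Ccnb2 and Cdk1 each held 2 CHR matches and Top2a held 3, all with CCAAT boxes. Ube2c held 1 CHR match on the minus strand (TTCAAA) beside 3 CCAAT boxes. A match is a description of the letters and not evidence of a bound site.

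Some interferon-inducible genes were higher in Sca-1+ cells, 6 of 18 GTPase genes and 4 of 47 other interferon-stimulated genes, and the difference between these lists was not tested. Guanylate-binding proteins (GBPs) and immunity-related GTPases (IRGs) are induced by interferon and attack the membranes around intracellular pathogens. Of 18 tested, 6 were higher in Sca-1+ cells and 0 lower, against 1.06% and 0.122% of all genes tested. The list's median log2 fold change was 0.33 (0.29, 0.24 and 0.35 in Ly6C+ pair A, Ly6C+ pair B and the Ly6C- pair). Iigp1, an IRG, was at 11.8, 13 and 22.3 CPM in Sca-1+ cells, against 4.09, 4.54 and 11.7 CPM in Sca-1- cells. Its groups did not overlap, although the margin between Ly6C+ Sca-1+ A and Ly6C- Sca-1- was small (1.31 ± 0.146, adjusted p = 0.0122 by edgeR). Igtp, for the IRG protein Irgm3, had nearly the same difference in each pair, 0.43, 0.42 and 0.40 on the log2 scale, at 115, 158 and 145 CPM in Sca-1+ cells against 85.2, 118 and 110 CPM in Sca-1- cells (0.42 ± 0.0533, adjusted p = 0.0172 by edgeR).

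Gbp2 was at 74.3, 90.2 and 93.9 CPM in Sca-1+ cells, against 56.0, 72.0 and 62.1 CPM in Sca-1- cells, with no overlap (0.44 ± 0.0678, adjusted p = 0.0303 by edgeR). Also called were Gbp6 (0.35 ± 0.0530), Gbp10 (0.47 ± 0.0744) and Tgtp1 (0.35 ± 0.0608). Gbp6 with Gbp10, and Tgtp1 with Tgtp2, are close copies whose reads the counting could divide either way. Tgtp2, which did not pass, was at 0.29 ± 0.0655 and Gbp9 at -0.01 ± 0.0679. Called members numbered 2 without Ly6C+ pair B, 8 without the Ly6C- pair and 0 without Ly6C+ pair A, by edgeR.

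Among 47 other interferon-stimulated genes 4 were higher in Sca-1+ cells (8.51%) and 0 lower, against 1.06% and 0.122% of all genes tested. The list's median was 0.17, and 46 of the 47 fold changes were positive. Among those higher were the viral nucleic acid sensor Zbp1 (0.35 ± 0.0589), Ifi27l2a (0.40 ± 0.0569) and Bst2, for the antiviral membrane protein tetherin (0.39 ± 0.0650, adjusted p = 0.0433 by edgeR). Bst2 stood at 47.4, 48.8 and 49.8 CPM in Sca-1+ cells, against 38.3, 37.7 and 35.8 CPM in Sca-1- cells, without overlap. Called members numbered 0 without Ly6C+ pair A, 0 without Ly6C+ pair B and 8 without the Ly6C- pair. Irf7 (0.30 ± 0.0597), Mx1 (0.51 ± 0.122) and Ifit3 (0.53 ± 0.122) did not pass, with adjusted p = 0.0844, 0.147 and 0.134 by edgeR. Of 22 class I antigen processing genes 0 passed, by edgeR, with a median of 0.13 and all 22 fold changes positive.

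Interferon response core letters were present in the windows of 9 of the 10 GBP and IRG genes that had one (90%), of 23 of 37 interferon-stimulated genes (62.2%) and of 8.56% of all 10403 genes. The Gbp2 promoter is given over the same 200 bases, with this match in capitals, since its level did not overlap between the groups.
Gbp2 (chr3:142620493-142620692, plus strand): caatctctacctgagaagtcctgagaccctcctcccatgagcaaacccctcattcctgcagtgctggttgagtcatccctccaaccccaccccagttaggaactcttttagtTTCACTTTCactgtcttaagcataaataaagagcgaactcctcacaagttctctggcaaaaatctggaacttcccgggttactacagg
The capitals read as the core on the minus strand.

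**Figure D2:**
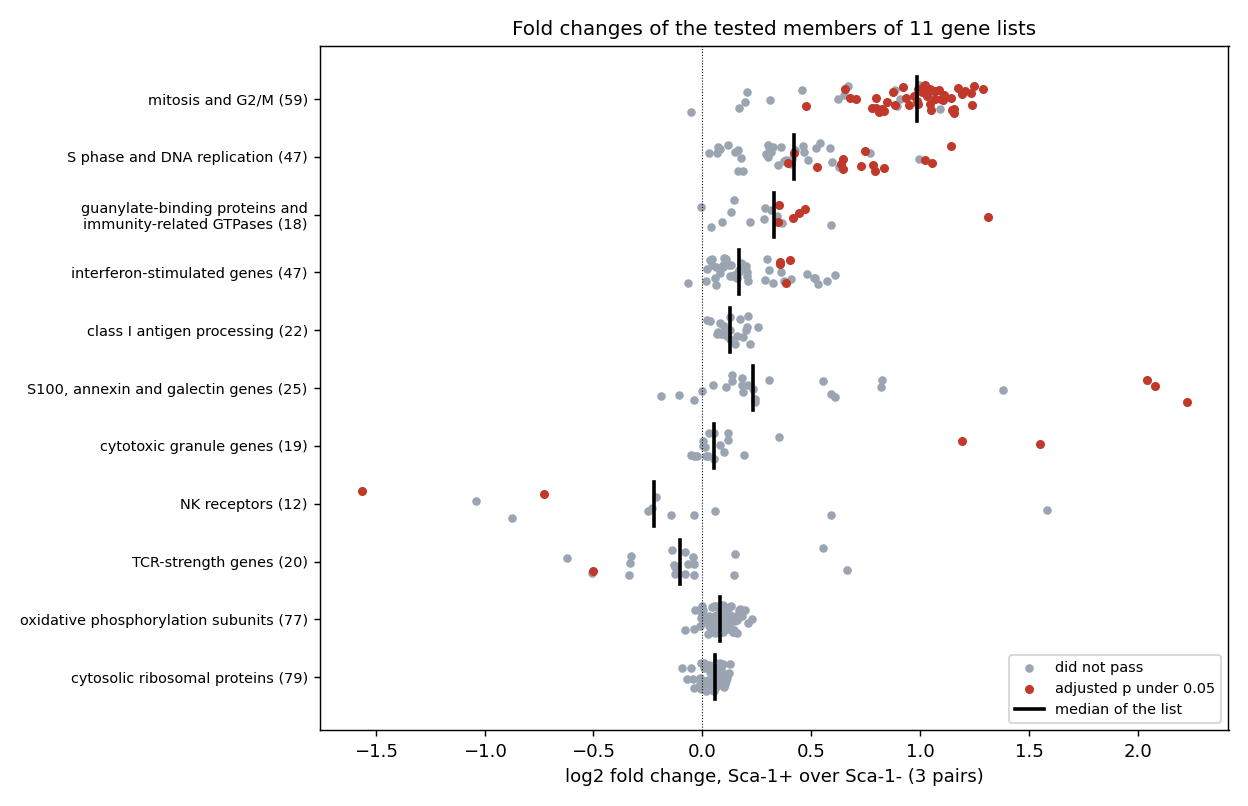
Log2 fold change of Sca-1+ over Sca-1- VM cells (horizontal axis, 3-pair fit) for each tested member of 11 gene lists, with the number of members in brackets. Red points passed an adjusted p under 0.05, grey points did not, black bars are list medians and vertical scatter carries no value; the mitosis list has 45 red points and a median of 0.99, and the oxidative phosphorylation and ribosomal lists have none.

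Of 19 cytotoxic granule genes tested, 2 were called higher in Sca-1+ cells and 0 lower, against 1.06% and 0.122% of all genes tested. Gzmb, for granzyme B, was at 6.10, 10.2 and 41.9 CPM in Sca-1+ cells, against 2.51, 2.94 and 14.1 CPM in Sca-1- cells (1.55 ± 0.125, adjusted p = 0.00783 by edgeR). Gzma, for granzyme A, was at 3.23, 8.29 and 12.9 CPM, against 1.5, 3.90 and 5.05 CPM in Sca-1- cells (1.19 ± 0.141, adjusted p = 0.0137 by edgeR). Both were higher in all 3 pairs, and both overlapped between the groups with the Ly6C- library the highest of each group. Prf1, for perforin, was at 83.6, 84.9 and 40.2 CPM, against 77.9, 81.6 and 40.3 CPM in Sca-1- cells, and did not pass (0.05 ± 0.0561, adjusted p = 0.794 by edgeR). The list's median was 0.05.

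Tested were 25 genes for S100 proteins, annexins, galectins and related proteins of effector and memory cells. Of these, 3 were higher and 0 lower, against 1.06% and 0.122% of all genes tested. The list's median was 0.23 (0.03, 0.10 and 0.64 in Ly6C+ pair A, Ly6C+ pair B and the Ly6C- pair). S100a4, for a calcium-binding protein of motile cells, was at 5.41, 5.16 and 119 CPM in Sca-1+ cells, against 1.89, 1.23 and 17.3 CPM in Sca-1- cells (2.23 ± 0.225, adjusted p = 0.0109 by edgeR). Lgals3, for galectin-3, was at 2.88, 3.52 and 38.8 CPM, against 0.895, 0.517 and 10.5 CPM in Sca-1- cells (2.04 ± 0.193, adjusted p = 0.00853 by edgeR). Both genes are also well expressed by macrophages, whose summed markers lay at 424 to 595 CPM in Sca-1+ and 142 to 281 CPM in Sca-1- libraries; the part of such cells in these values was not tested. Anxa1, for annexin A1, was called at 2.08 ± 0.357 and was at most 7.08 CPM in any library.

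Other genes higher in Sca-1+ cells encode surface and signalling proteins, and the part of macrophages or other cells in their values was not tested. Nrp1, for the semaphorin receptor neuropilin-1, was at 2.90, 3.90 and 51.6 CPM in Sca-1+ cells, against 0.912, 0.716 and 17.2 CPM in Sca-1- cells (1.82 ± 0.171, adjusted p = 0.00848 by edgeR). Ptprj, for the receptor phosphatase CD148, was at 6.97, 10.4 and 12.2 CPM, against 2.29, 2.27 and 6.54 CPM in Sca-1- cells, without overlap (1.54 ± 0.234). Itgae, for the integrin chain CD103 that binds E-cadherin, was at 16.6, 26.5 and 206 CPM, against 5.99, 9.35 and 130 CPM in Sca-1- cells (1.16 ± 0.159, adjusted p = 0.0212 by edgeR). Casp1, for the inflammatory protease caspase-1, had a log2 fold change of 1.52 ± 0.246. Ccr4, a chemokine receptor gene, was called at 1.85 ± 0.317 largely on the Ly6C- pair, at 0.101, 0.336 and 19.2 CPM in Sca-1+ cells against 0.0860, 0.0995 and 4.36 CPM in Sca-1- cells.

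Transcription factors of memory and effector cells divided. Of 22 tested, 2 were higher and 1 lower in Sca-1+ cells, against 1.06% and 0.122% of all genes tested. The list's median was 0.11. Zbtb32, for a zinc finger repressor of proliferation in lymphocytes, was at 2.00, 3.55 and 45.5 CPM in Sca-1+ cells, against 0.877, 0.577 and 14.2 CPM in Sca-1- cells (1.78 ± 0.221, adjusted p = 0.0153 by edgeR). Rora, an orphan nuclear receptor gene, was at 14.9, 11.6 and 40.6 CPM, against 10.1, 7.6 and 18.5 CPM in Sca-1- cells (0.78 ± 0.132). Eomes, a T-box factor that VM cells are known for, did not pass although its 3 Sca-1+ libraries lay below its 3 Sca-1- libraries (-0.41 ± 0.111, adjusted p = 0.212 by edgeR), nor did Tbx21 for T-bet (0.15 ± 0.232) or Tcf7 for TCF-1 (0.01 ± 0.0563). Il2rb, for the receptor chain through which IL-15 acts, was at -0.18 ± 0.104 and did not pass.

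The genes lower in Sca-1+ cells were few. Ikzf2, for the Ikaros family factor Helios, was at 10.5, 19.0 and 59.2 CPM in Sca-1+ cells, against 32.2, 38 and 182 CPM in Sca-1- cells. Each pair showed the drop while the groups overlapped across Ly6C classes (-1.42 ± 0.122, adjusted p = 0.00831 by edgeR). Hdac9, for a class II histone deacetylase, was at 0.943, 2.09 and 5.62 CPM, against 5.20, 3.82 and 30.6 CPM in Sca-1- cells (-1.95 ± 0.303, adjusted p = 0.0317 by edgeR). Spry2, for an inhibitor of growth factor signalling through ERK, was at 3.23, 2.86 and 2.03 CPM, against 15.0, 6.72 and 5.17 CPM in Sca-1- cells, without overlap (-1.61 ± 0.213, adjusted p = 0.0188 by edgeR). Egr3, a factor induced by T cell receptor signals, had nearly equal differences of -0.51, -0.51 and -0.48 in Ly6C+ pair A, Ly6C+ pair B and the Ly6C- pair (-0.50 ± 0.0813, adjusted p = 0.0352 by edgeR). It was the 1 called member of 20 genes that follow T cell receptor strength, against 0.122% of all genes called lower. Of the 20, 10 were negative in all 3 pairs, against 15.6% of all tested genes, and the median was -0.10.

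NK receptor genes had 2 of 12 members called, both lower, against 0.122% of all genes, and a median of -0.22. Klra6 and Klra3 encode inhibitory Ly49 receptors that bind class I molecules. Klra6 was at 5.09, 4.51 and 0.741 CPM in Sca-1+ cells, against 17.3, 10.4 and 2.57 CPM in Sca-1- cells (-1.56 ± 0.164, adjusted p = 0.0116 by edgeR). Klra3 was at 15.1, 9.76 and 2.85 CPM, against 21.3, 16.3 and 5.69 CPM in Sca-1- cells (-0.73 ± 0.124, adjusted p = 0.0446 by edgeR). Ly49 genes are close copies, so the division of reads among them is uncertain. Klrd1 (-0.14 ± 0.0613) and Klrc1 (-0.23 ± 0.0901), for the CD94 and NKG2A chains of another class I receptor, did not pass. Itih5 (-1.21 ± 0.186) and Klhdc2 (-0.43 ± 0.0678) also lay lower in all Sca-1+ than in all Sca-1- libraries, and Rasgef1a (-1.02 ± 0.179), Kifc3 (-0.64 ± 0.104), Coro2a (-0.52 ± 0.0811) and Frat2 (-0.48 ± 0.0680) were lower with overlap.

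In 12 of the 27 pathway lists 0 members were called by edgeR, against 1.06% higher and 0.122% lower among all genes tested. At those shares a short list may well hold no called gene, so 0 calls do not set these lists apart. Those lists were class I antigen processing, effector cytokines and chemokines, inhibitory receptors and Tox, common gamma chain receptors and STAT5 targets, AP-1 and immediate early genes, glycolysis, fatty acid oxidation, cholesterol biosynthesis, oxidative phosphorylation, ribosomal proteins, heat shock proteins and the BCL2 family. Oxidative phosphorylation genes had a median of 0.08 (69 of 77 tested were positive) and ribosomal protein genes 0.06 (69 of 79 tested were positive). Naive and stem-like genes had a median of -0.09, and their 1 called member of 28 was Itgae, described above. The heat shock genes Hspa1a and Hspa1b were lowest in Ly6C+ Sca-1- B and highest in both libraries of Ly6C+ pair A. Hspa1a was at 325, 103 and 152 CPM in Sca-1+ cells, against 334, 8.46 and 78.5 CPM in Sca-1- cells. AP-1 and immediate early genes summed to 14400, 6860 and 9930 CPM in Sca-1+ cells, against 15500, 6810 and 10300 CPM in Sca-1- cells.

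Markers of other cells moved with Sca-1, and their part in the results above was not tested. All 19 monocyte and macrophage markers tested had a positive fold change, 18 of them in every pair, against 17% of all tested genes. The list's median was 2.27 (2.00, 4.32 and 0.62 in Ly6C+ pair A, Ly6C+ pair B and the Ly6C- pair). The summed level of these markers was 437, 595 and 424 CPM in Sca-1+ cells, against 190, 142 and 281 CPM in Sca-1- cells, so the groups did not overlap. Called higher were 3 of the 19, against 1.06% of all genes tested. They were Lyz2 for lysozyme (1.90 ± 0.240), Axl, a receptor for dying cells (1.77 ± 0.285), and Spic, a factor of red pulp macrophages of the spleen (2.93 ± 0.513). Csf1r, the defining growth factor receptor, was at 36.4, 52.1 and 25.4 CPM in Sca-1+ cells, against 6.12, 1.23 and 16.5 CPM in Sca-1- cells and did not pass over the 3 pairs (2.60 ± 0.735, adjusted p = 0.241 by edgeR). Without the Ly6C- pair all 19 of the list were called.

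Erythroid genes summed to 21.5, 18.3 and 43.8 CPM in Sca-1+ cells, against 6.66, 4.95 and 19.8 CPM in Sca-1- cells. Of 7 tested, 4 were called higher, all globin genes, against 1.06% of all genes tested. Hbb-bs was at 5.91, 4.64 and 11.6 CPM, against 1.43, 0.736 and 4.06 CPM in Sca-1- cells, without overlap (2.02 ± 0.227, adjusted p = 0.0122 by edgeR). The others were Hbb-bt, Hba-a1 and Hba-a2. Hbb-bs with Hbb-bt, and Hba-a1 with Hba-a2, are near-identical, so the division of reads within each pair of genes is uncertain for all 4. Plasma cell genes summed to 49.2, 50 and 138 CPM, against 33.9, 37.1 and 56.5 CPM in Sca-1- cells. Of 6 tested, 2 were called higher, against the same 1.06% of all genes. Jchain, for the joining chain of secreted antibody, was at 5.42, 3.77 and 19.5 CPM in Sca-1+ cells, against 0.637, 0.239 and 2.10 CPM in Sca-1- cells, without overlap (3.34 ± 0.202, adjusted p = 0.00245 by edgeR). Igkc, for the kappa light chain constant region, was called at 3.13 ± 0.254. Outside the list, the light chain segments Iglv1, Iglc1, Iglc2 and Igkv1-110 were also called higher, at most 3.88 CPM in any library.

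**Figure D3:**
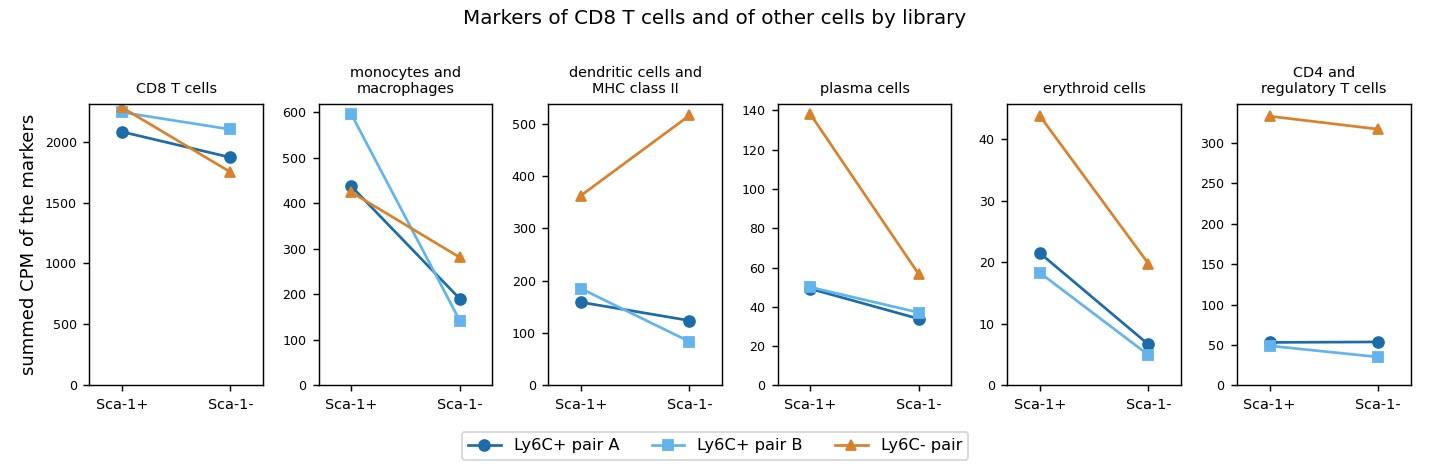
Summed CPM (vertical axis from 0, scaled per panel) of the markers of CD8 T cells and of 5 other cell classes in the 6 libraries, with Sca-1+ at the left and Sca-1- at the right of each panel and 1 line per pair. Macrophage markers lie at 424 to 595 CPM in Sca-1+ and 142 to 281 CPM in Sca-1- libraries, while CD8 markers lie between 1750 and 2280 CPM throughout.

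Dendritic cell and MHC class II genes went different ways by Ly6C class: the list summed to 159, 185 and 363 CPM in Sca-1+ cells, against 124, 83.8 and 516 CPM in Sca-1- cells. Of 15 tested only Siglech was called (2.48 ± 0.423), against 1.06% of all genes called higher, and it was at most 2.49 CPM in any library. The CD4 and regulatory T cell list, with 0 of 7 called by edgeR, summed to 53.2, 49.0 and 333 CPM, against 53.8, 35.2 and 317 CPM in Sca-1- cells. That sum held members that differed in opposite directions, and the list median was 0.40. Cd4 was at 0.522, 0.959 and 7.94 CPM in Sca-1+ cells, against 0.172, 0.159 and 3.55 CPM in Sca-1- cells (1.62 ± 0.307, adjusted p = 0.0678 by edgeR). Cd40lg, for the CD40 ligand of helper T cells, had 1.5 ± 0.281 (adjusted p = 0.0666 by edgeR), and Zbtb7b, for the CD4 lineage factor ThPOK, had 1.29 ± 0.327 (adjusted p = 0.181 by edgeR). These 3 had positive differences in all 3 pairs, while Izumo1r, for folate receptor 4, had -0.51 ± 0.131 and negative ones.

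NK cell markers summed to 12.6, 24.5 and 27.9 CPM in Sca-1+ cells, against 8.95, 11.9 and 18.2 CPM in Sca-1- cells, with a list median of 1.21. Of the 4 tested, 3 were positive in all 3 pairs, against 17% of all tested genes. Only Gzma, already counted above among the granule genes, was called, against 1.06% of all genes called higher. Tyrobp and Fcer1g, for signalling adaptors that myeloid cells share, had 1.28 ± 0.359 and 1.22 ± 0.344 and did not pass (adjusted p = 0.238 for each by edgeR). Klrb1c, for NK1.1, had -0.88 ± 0.268 and was negative in all 3 pairs. The part of CD4 T cells and NK cells in the results above was not tested. T cell, CD8, B cell, gamma delta T cell, platelet and stromal markers had 0 called by edgeR, and neutrophil markers were not among the genes tested. B cell markers summed to 642, 626 and 830 CPM in Sca-1+ cells, against 611, 557 and 630 CPM in Sca-1- cells, with a list median of -0.07. Ighm alone stood at 506 to 771 CPM, and the part of B cells was not tested.

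Whether the Sca-1 difference depended on Ly6C was asked by testing the difference in the Ly6C- pair minus that in the 2 Ly6C+ pairs. Integrin beta 1, IL-18 receptor, Cxcr3 and S100 and annexin genes had the higher log2 difference in the Ly6C- pair, and Ccr9, Marcks, Itgad and Sox4 the lower one. By edgeR's quasi-likelihood test 138 genes had a more positive difference in the Ly6C- pair (0.934%) and 233 a more negative one (1.58%) at an adjusted p under 0.05. Only 7 genes were called both here and over the 3 pairs. The Ly6C- pair is 1 library against 1, the fit had 1 residual degree of freedom, and without the pair block 0 genes were called by edgeR, with 739 at an unadjusted p under 0.05.

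Itgb1, for the integrin beta 1 chain, was at 738 CPM in Ly6C- Sca-1+ cells, against 200 CPM in Ly6C- Sca-1- cells. In Ly6C+ cells it was at 232 and 227 CPM with Sca-1, against 212 and 213 CPM without (difference of differences 1.77 ± 0.101 on the log2 scale, adjusted p = 1.87e-05 by edgeR). Il18r1, for an IL-18 receptor chain, was at 210 CPM in Ly6C- Sca-1+ cells, against 56.6 CPM in Ly6C- Sca-1- cells, while Ly6C+ cells had 415 and 299 CPM with Sca-1 and 371 and 281 CPM without (1.76 ± 0.104). The chemokine receptor gene Cxcr3 followed the same order, at 120 CPM in Ly6C- Sca-1+ cells against 44.9 CPM in Ly6C- Sca-1- cells, with 133 to 143 CPM in the 4 Ly6C+ libraries (1.34 ± 0.0990). So the Ly6C- Sca-1- library stood lowest of the 6 for each of these 3 genes. Anxa2 differed in sign between the classes, with pair differences of -0.66 and -0.37 in Ly6C+ cells and 1.01 in Ly6C- cells (1.53 ± 0.124), and so did the calcium pump gene Atp2b4 (1.25 ± 0.103).

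In the other direction, Ccr9, for a receptor that guides T cells to the gut and thymus, was at 37.8 CPM in Ly6C- Sca-1+ cells, against 83.3 CPM in Ly6C- Sca-1- cells. In Ly6C+ cells it was at 6.07 and 14.1 CPM with Sca-1, against 2.05 and 5.09 CPM without (-2.65 ± 0.160, adjusted p = 1.87e-05 by edgeR). Marcks, for a membrane substrate of protein kinase C, was at 5.46 CPM against 18.7 CPM in the Ly6C- pair, and at 7.24 and 7.96 CPM with Sca-1 against 2.00 and 1.23 CPM without in Ly6C+ cells (-4.01 ± 0.320). Itgad, for the integrin alpha D chain, had a value of -1.89 ± 0.185. The monocyte and macrophage markers had 3 of 19 called here, all more negative in the Ly6C- pair, with a list median of -2.37. The dendritic cell and MHC class II list, which holds Ccr9, had 3 of 15, also all more negative, and the part of either cell type in these values was not tested. Gm38495 (-2.36 ± 0.146) and Rps27rt (-1.34 ± 0.129) were also called, with reads that may belong to near-identical genes. Of the division lists, 0 of 47 S phase and 2 of 59 mitosis genes were called here, Kif15 and Cenpf, both more negative in the Ly6C- pair, with list medians of 0.21 and -0.27 against 0.0171 over all tested genes. The S100, annexin and galectin list had 10 of 25 called, all more positive in the Ly6C- pair (median 0.42), and memory surface genes 8 more positive and 2 more negative of 22. Naive and stem-like genes had 10 of 28 more negative and 1 more positive. Over all genes tested, 0.934% were called more positive and 1.58% more negative.

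**Figure D4:**
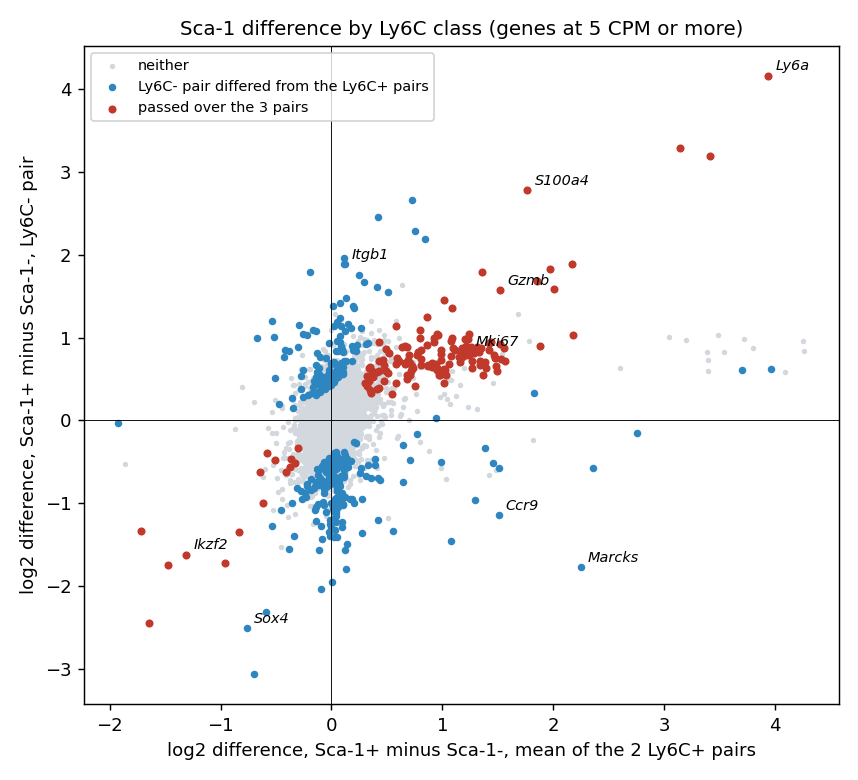
Log2 difference of Sca-1+ minus Sca-1- libraries in the Ly6C- pair (vertical axis) against the mean of the 2 Ly6C+ pairs (horizontal axis), 1 point per gene at 5 CPM or more. Red points (150) passed over the 3 pairs and lie in the quadrants where both differences have 1 sign, blue points (312) had a difference that depended on Ly6C class, and the 9494 other genes are grey; a gene called in both fits is red.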

How the data were processed

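Bulk RNA was sequenced from stranded mRNA libraries as paired reads of 101 bases, per the labels' protocols, which name FastQC 0.11.7 and Trimmomatic 0.38. Of the build and tools, mm10, R 3.6.0 and edgeR stand in the submitters' processing notes. The aligner was not given in the sources used here, nor was the read counter. The deposited values used were the authors' raw read counts per gene for 15609 genes, none of them under 1 count in any library, so genes at 0 in a library could not be seen. The authors' deposited signed fold changes, a score never between -1 and 1, and their p-values are quoted only where named as theirs. Another 24 per-sample columns were not used.

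Genes were filtered with filterByExpr by Sca-1 group (14776 kept), scaled with TMM and fitted in edgeR 4.0.16 (R 4.3.3) by quasi-likelihood with pair and Sca-1 as terms. This left 2 residual degrees of freedom. The dependence on Ly6C was a further term. The threshold for a call was 0.05 on the p-value adjusted by Benjamini and Hochberg. Each SE was derived from the test, as the absolute log2 value divided by the square root of its quasi-likelihood F statistic. Values per pair are differences of log2 CPM with a prior count of 2. RefSeq matched 15570 gene IDs, and limma 3.58.1 and DESeq2 1.42.0 served as alternatives.

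The pairing came from the column suffixes and not from the labels. Deviations of the suffixed and unsuffixed libraries from their group means correlated at 0.371 between Sca-1+ and Sca-1- cells, which with 2 such pairs does not establish it. The genes named were the sort genes, the 12 called protein-coding genes with the largest fold change in each direction at a mean of at least 5 CPM, up to 4 members of each list by p plus defining members, and 5 genes in each direction for the dependence on Ly6C. The members and lists were chosen with earlier results of these data known. A called member of the interferon-stimulated list is not reported here.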

Additional observations from a re-analysis of the deposited data

Results flagged for a closer look

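For 31 of the genes examined the Sca-1 difference itself differed between the Ly6C classes, by edgeR's quasi-likelihood test of the difference in the Ly6C- pair minus that in the 2 Ly6C+ pairs. The values are on the log2 scale. The Ly6C- pair is 1 library against 1, so its part is not replicated. The part of macrophages, dendritic cells or other cells in these values was not tested.

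Among the genes of the sort, the value was 0.75 for Ly6c1 and 0.56 for Ly6c2, whose reads may be divided between them, 0.46 for Cd44 and -0.83 for Itga4.

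Surface and adhesion genes had 1.77 for Itgb1, 1.76 for Il18r1, 0.52 for Thy1, -0.83 for Itgae and -1.89 for Itgad. Chemokine receptor genes had 1.34 for Cxcr3 and 0.72 for Cxcr6, against -0.68 for Cxcr4, -2.65 for Ccr9 and -3.08 for Ccr3. Ccr3 was low, at most 8.09 CPM in any library and at 0.929 and 0.219 CPM in the Ly6C+ Sca-1- libraries. S100 and annexin genes had positive values of 1.02 for S100a4, 1.95 for S100a6 and 1.53 for Anxa2.

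Transcription factor genes had -0.74 for Myb, -1.75 for Sox4, -0.64 for Tox and 1.57 for Zbtb7b. Apoptosis regulators had -0.54 for Bcl2 and -0.57 for Bcl2l11. The remaining values were 1.40 for Ifng, 0.59 for Gapdh, 0.58 for Dapl1, 1.25 for Atp2b4, -4.01 for Marcks, -1.89 for Cd74, -2.36 for Gm38495 and -1.34 for Rps27rt.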

How the results depend on the processing

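Over the 3 pairs, 174 genes were called (156 higher, 18 lower). The count moved to 354 (296 higher, 58 lower) with DESeq2 and to 3 (3 higher, 0 lower) against a minimum of 1.5-fold. It stayed within 1.5 times of 174 with RLE scaling, no filter, a filter of 1 CPM in 3 libraries and limma-voom. Leaving out each pair gave 2 to 486 genes (2 to 401 higher, 0 to 85 lower). The pairing decided the count: with no replicate block 0 genes were called (0 higher, 0 lower), and with Ly6C class as the block 5 (5 higher, 0 lower).

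For the dependence on Ly6C, 371 genes were called (138 more positive, 233 more negative). DESeq2 called 185, with 92 more negative, and without a filter 217 were more positive. With no replicate block 0 were called (0 in either direction). Leaving out each Ly6C+ library in that fit, added after the data were seen, gave 0 to 88 genes (0 to 17 more positive, 0 to 77 more negative). Leaving out a whole Ly6C+ pair left no residual degrees of freedom and was not run. Apart from the constructions just named, the cause was not tested. Of the 51 called genes named, 51 passed with RLE scaling, DESeq2 and limma-voom, 43 with no filter and 47 of the 49 left at 1 CPM. Without the Ly6C- pair 49 of the 50 with a value passed, without Ly6C+ pair B 39 and without Ly6C+ pair A 2. With Ly6C class as the block 5 passed, at a minimum of 1.5-fold 3, and with no block 0. Wherever a gene had a value its sign was kept.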

Other observations

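Some called genes lay outside every list and are named here after their values were seen. Tlr1, for a receptor of bacterial lipopeptides, was at 120, 134 and 125 CPM in Sca-1+ cells (Ly6C+ A, Ly6C+ B and Ly6C-), against 92.8, 95.5 and 82.4 CPM in Sca-1- cells, without overlap (log2 fold change 0.48 ± 0.0626 SE, adjusted p = 0.0176 by edgeR). Plac8 was at 134, 139 and 63.5 CPM, against 89.8, 92.9 and 46.5 CPM in Sca-1- cells (0.54 ± 0.0572, adjusted p = 0.0116 by edgeR). Slc6a19, for a neutral amino acid transporter, was at 20.9, 22.4 and 54.3 CPM, against 8.81, 6.03 and 33.1 CPM in Sca-1- cells (1.26 ± 0.195). Plac8 and Slc6a19 were higher in each pair while their groups overlapped.

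Lower in Sca-1+ cells was Chst3, for a chondroitin sulphotransferase, at 0.505, 0.807 and 1.85 CPM, against 1.94, 2.43 and 10.2 CPM in Sca-1- cells, without overlap (-2.02 ± 0.232, adjusted p = 0.0128 by edgeR). Gpr183, for the oxysterol receptor EBI2 that positions lymphocytes, was at 100, 82.0 and 65.5 CPM, against 121, 113 and 90.2 CPM in Sca-1- cells (-0.40 ± 0.0612). Adora2a, for an adenosine receptor that restrains T cells, was at 52.4, 41.5 and 45.0 CPM, against 67.8, 50.9 and 64.5 CPM in Sca-1- cells (-0.39 ± 0.0653). Both were lower in all 3 pairs with overlap between the groups. These values were not tested further.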
